A study of Mus musculus with 18 samples.

Results

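Mir296 and Mir298 are a pair of neighbouring microRNA (miRNA) hairpin loci at the imprinted Gnas region of mouse chromosome 2. They are 2 of the 2009 annotated miRNA loci counted in this series, and both were chosen by name with their counts over the 4 groups already known, so their values below are a description with no test. The libraries hold small RNA of adipose stromal cells (ASC), mesenchymal cells grown from mouse fat, or of the extracellular vesicles (EVs) that such cells shed. The 18 libraries form 4 groups. Primed EVs (n = 5) came from cells exposed to interferon gamma for 24 h, naive EVs (n = 5) from cells without that exposure, and primed ASC (n = 4) and naive ASC (n = 4) are cells with and without it. Groups and library numbers were taken from the source names, since the molecule subtype in the labels is that of vesicle miRNA for the ASC libraries too. The titles give primed EV 1 and primed EV 5 the same number, 5, and give naive EV 1 and naive ASC 1 a combined number, 1+2, and each of these was counted as 1 library. All groups share the NGL strain, adult age, adipose origin and a 48 h culture in alpha MEM with 2% EV-depleted serum. A SeraMir kit was used to isolate RNA from EVs, and TRIzol with RNeasy columns from ASC, so vesicle origin and isolation method cannot be told apart. The labels do not say that replicates came from separate animals or cultures, so the spread given here may be technical.

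An imprinted gene is transcribed mainly from the copy inherited from one parent. In the mouse Gnas region, Mir296 and Mir298 lie downstream of Nespas, a paternally expressed transcript antisense to Gnas, and both miRNAs are known to be expressed from the paternal copy. Each hairpin is cut by Drosha and Dicer into a 5p and a 3p arm, and the loaded arm directs Argonaute to target RNAs through its seed, bases 2 to 8. Mouse miR-296 is known to target the pluripotency factor Nanog, human miR-296 is linked to growth factor signalling in endothelial cells, and mouse miR-298 is known to target the secretase Bace1. Interferon gamma is the cytokine with which stromal cells are commonly primed to strengthen their immunoregulatory activity.

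Mir296 (ENSMUSG00000065521) spans chromosome 2 from 174267047 to 174267125 and Mir298 (ENSMUSG00000065410) from 174267504 to 174267585, both on the minus strand of GRCm38. The hairpins are 79 and 82 bases long and 378 bases apart. In GENCODE M21 no exon or gene other than the miRNAs themselves overlaps this stretch, which ends 13652 bases from the annotated end of Nespas. The nearest other loci with any counts were Mir6340, at 0.566 Mb with 7 counts in all libraries together, and Mir3091, at 5.99 Mb with 7 counts. The mature arms are shown because the pair differs in its seeds, which are in capitals (RefSeq, GRCm38.p6):
mmu-miR-296-5p: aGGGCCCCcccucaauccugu
mmu-miR-296-3p: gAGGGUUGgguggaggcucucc
mmu-miR-298-5p: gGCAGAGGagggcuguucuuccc
mmu-miR-298-3p: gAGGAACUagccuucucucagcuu

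The 4 seeds differ from each other, and no other mature miRNA in the RefSeq table shares any of them. The longest run of bases common to an arm of Mir296 and an arm of Mir298 was 5. The counts are per hairpin, so they do not separate the arms. The hairpins are shown with both arms in capitals, because the counts cover the whole hairpin:
Mir296 hairpin: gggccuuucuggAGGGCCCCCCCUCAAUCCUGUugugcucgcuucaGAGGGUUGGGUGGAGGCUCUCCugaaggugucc
Mir298 hairpin: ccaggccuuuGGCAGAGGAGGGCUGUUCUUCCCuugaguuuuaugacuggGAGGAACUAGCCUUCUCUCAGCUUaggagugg

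Libraries held 180812 to 3052942 counts. The labelled cell type was checked against marker loci. The 9 mesenchymal or fibroblast loci found in the files held 69.4% to 71.5% of counts in primed EVs, 66.8% to 69.9% in naive EVs, 30.4% to 42.0% in primed ASC and 27.4% to 52.5% in naive ASC. Mir22, Mir143, Mir21a, Mir10a and Mir10b had 741894 to 4396784 counts each in all libraries together. The other mesenchymal loci had 18 to 78851. In primed EVs against primed ASC, Mir145a and Mir214 were lower, at log2 fold changes of -2.02 and -2.23. Mir22, Mir143 and Mir21a were higher there, at 1.65, 2.32 and 3.58. The 5 blood and red cell loci all had counts in every group and held 0.145% to 0.613% of counts in primed EVs, 0.357% to 1.47% in naive EVs, 0.00873% to 0.0492% in primed ASC and 0.0108% to 0.0187% in naive ASC. Mir126a, the endothelial marker, held 0.198% to 0.496%, 0.318% to 0.902%, 0.00601% to 0.0592% and 0.0105% to 0.0288% in the same order. The 7 epithelial loci held 0.00102% to 0.287% of counts in EVs and 0.00411% to 0.270% in ASC. Neural, striated muscle and liver loci each held at most 0.00318% in any library, with Mir124a-1, Mir124a-3, Mir9-2, Mir133a-1 and Mir133a-2 at 0 throughout. Blood and endothelial loci therefore moved with the EV against ASC comparisons below, and their part in those results was not tested.

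Mir296 was low in EVs and higher in the cells. Its level, in counts per 1e6 scaled by TMM (a factor per library that allows for a few loci taking most counts), was 45.1, 45.5, 50.9, 72.5 and 76.9 CPM in primed EVs 1 to 5. It was 48.1, 84.4, 61.3, 39.9 and 57.9 CPM in naive EVs 1 to 5. In the 10 EV libraries it never exceeded the lowest ASC library. It was 218, 159, 129 and 133 CPM in primed ASC 2 to 5, and 206, 109, 135 and 199 CPM in naive ASC 1, 3, 4 and 5. The means were 58.2 ± 15.4 CPM in primed EVs (SD, n = 5 libraries), 58.3 ± 16.8 CPM in naive EVs (n = 5), 160 ± 41.2 CPM in primed ASC (n = 4) and 162 ± 47.8 CPM (n = 4) in naive ASC. From highest to lowest the order was naive ASC, primed ASC, naive EV and primed EV, in which the ASC groups overlapped each other and the EV groups overlapped each other. In bulk libraries, fewer cells of a type and less RNA per cell cannot be told apart.

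**Figure D1:**
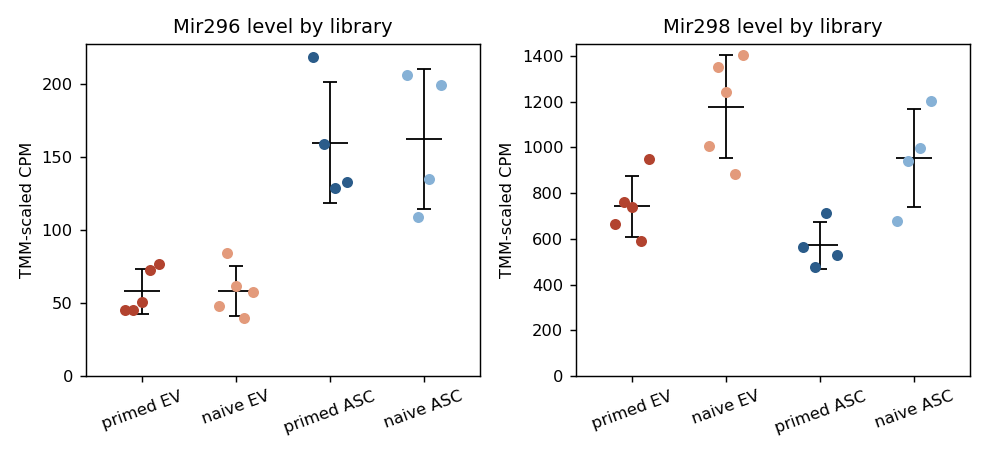
Level of Mir296 (left) and Mir298 (right) in TMM-scaled CPM on linear axes from 0. Each point is 1 library, and the horizontal bar and whiskers are the mean and SD of a group. All 10 EV libraries of Mir296 lie under its 8 ASC libraries, while for Mir298 the primed groups, at means of 742 and 572 CPM, lie under the naive groups of the same origin, at 1178 and 954.5 CPM.

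Mir296 was 2.77-fold lower in primed EVs than in ASC of that treatment, a log2 fold change of -1.47 (SE 0.28). In naive EVs it was likewise 2.77-fold lower than in naive ASC (-1.47, SE 0.28). The median of all 245 tested loci was 0.02 in the primed and -0.24 in the naive comparison, and 42 and 33 loci had lower values than Mir296. The libraries did not overlap between EVs and ASC for Mir296, 1 of the 2 members, in either comparison. That was so for 53.5% of all tested loci in the primed comparison and 58.4% in the naive one. Without any 1 library the value stayed between -1.66 and -1.32 in the primed and between -1.64 and -1.22 in the naive comparison.

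Mir296 rested on few reads in EVs. It had 24 to 122 counts per primed EV library and 24 to 98 per naive EV library, against 31 to 240 per primed ASC library and 119 to 161 per naive ASC library. In primed EV 1 the 24 counts were 32.2 per 1e6 of the library total, with an exact 95% binomial interval of 20.6 to 47.9 per 1e6 that covers counting error only. Ranked by count among all loci of a library, Mir296 stood at places 153 to 170 in primed EVs, 148 to 184 in naive EVs, 109 to 125 in primed ASC and 110 to 136 in naive ASC.

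Mir298 was the more abundant locus of the pair and its levels in EVs and in cells overlapped. It was at 667, 762, 740, 590 and 950 CPM in primed EVs 1 to 5, and at 1005, 1353, 1244, 884 and 1405 CPM in naive EVs 1 to 5. Of the naive EV libraries, naive EV 4 alone lay within the range of the primed ones. It was at 563, 479, 714 and 530 CPM in primed ASC 2 to 5, and at 679, 942, 996 and 1201 CPM in naive ASC 1, 3, 4 and 5. Here naive ASC 1 alone lay within the primed range. The means were 742 ± 135 CPM (SD, n = 5) in primed EVs, 1178 ± 225 CPM (n = 5) in naive EVs, 572 ± 101 CPM (n = 4) in primed ASC and 954.5 ± 215 CPM (n = 4) in naive ASC. The order from highest to lowest was naive EV, naive ASC, primed EV and primed ASC, and each group overlapped the next. Mir298 had 172 to 2049 counts per library and stood at places 54 to 89 by count.

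Between EVs and ASC, Mir298 differed by 0.38 (SE 0.21) on the log2 scale in the primed comparison and by 0.30 (SE 0.20) in the naive one, with overlapping libraries in both. Approximate 95% intervals were -0.03 to 0.78 and -0.10 to 0.70. The sign depended on the scaling. With library totals alone in place of TMM, the values were -0.33 and -0.18, while the median of all loci moved to -0.69 and -0.70. Relative to that median, Mir298 was at 0.36, 0.37 and 0.37 in the primed comparison with TMM, relative log expression factors and library totals, and at 0.54, 0.55 and 0.52 in the naive one. Relative to the same medians, Mir296 was at -1.48, -1.49 and -1.49 in the primed and at -1.23, -1.22 and -1.24 in the naive comparison.

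The ratio of Mir298 to Mir296 within a library does not depend on the scaling, and it was higher in EVs than in cells of the same treatment. Taken as counts per hairpin base, it was 14.3, 16.1, 14.0, 7.84 and 11.9 in primed EVs 1 to 5, and 20.1, 15.5, 19.5, 21.4 and 23.4 in naive EVs 1 to 5. It was 2.49, 2.91, 5.35 and 3.84 in primed ASC 2 to 5, and 3.18, 8.33, 7.13 and 5.82 in naive ASC 1, 3, 4 and 5. The primed EV libraries all lay above the primed ASC libraries, and the naive EV libraries above the naive ASC libraries. The lowest EV ratio, 7.84 in primed EV 4, was under the highest ASC ratio, 8.33 in naive ASC 3. Geometric means were 12.5 in primed EVs, 19.8 in naive EVs, 3.49 in primed ASC and 5.76 in naive ASC. Primed EVs had a ratio 3.57-fold above that of primed ASC (log2 difference 1.84, SE 0.30), and naive EVs had a ratio 3.44-fold above that of naive ASC (1.78, SE 0.32). Such differences were common among neighbouring loci. Of 73 other pairs of tested loci next to each other on 1 strand within 10 kb, 50.7% had ratios without overlap in the primed and 53.4% in the naive comparison, and 27 and 26 differed by more than Mir296 and Mir298 in log2 fold change. Many of these pairs lie in 1 imprinted cluster, Dlk1-Dio3, and a locus can be in more than 1 pair.

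**Figure D2:**
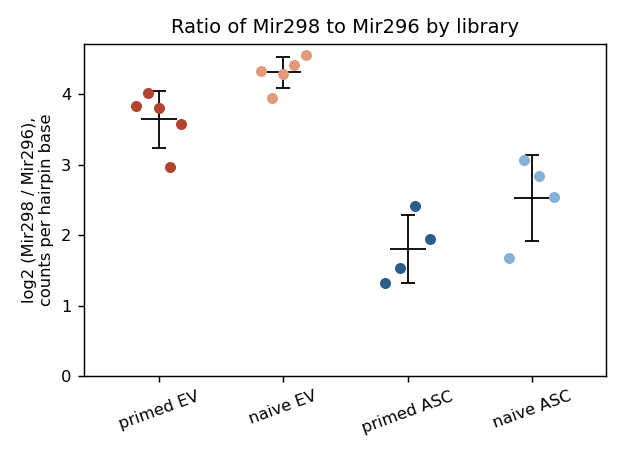
log2 ratio of Mir298 to Mir296 in counts per hairpin base, with 1 point per library and the mean and SD of each group. The EV groups, at means of 3.64 and 4.31, lie above the ASC groups at 1.80 and 2.53, and in both the primed mean is under the naive one.

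With priming, Mir298 was lower in vesicles and in cells, while the means of Mir296 were close. Mir298 was 1.59-fold lower in primed than in naive EVs (log2 fold change -0.67, SE 0.19) and 1.67-fold lower in primed than in naive ASC (-0.74, SE 0.22). Of 245 tested loci, 17 had a lower value in EVs and 30 in ASC, around medians of 0.02 and -0.12. Without any 1 library the Mir298 value lay between -0.77 and -0.51 in EVs and between -0.85 and -0.54 in ASC. Mir296 was at -0.01 (SE 0.27) in EVs and -0.01 (SE 0.29) in ASC, with approximate 95% intervals of -0.54 to 0.52 and -0.58 to 0.56. Neither member had libraries without overlap between primed and naive EVs or between primed and naive ASC, where 2.45% and 11.4% of all tested loci had.

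The log2 fold change with priming differed between EVs and ASC, taken as EV minus ASC, by 0.08 (SE 0.29) for Mir298 and by -0.00 (SE 0.38) for Mir296. The approximate 95% intervals of these differences were -0.49 to 0.64 and -0.76 to 0.75. The ratio of Mir298 to Mir296 was 1.59-fold lower in primed than in naive EVs (log2 difference -0.67, SE 0.21) and 1.65-fold lower in primed than in naive ASC (-0.72, SE 0.39). Among EVs the overlap came from naive EV 2, whose ratio of 15.5 lay under the 16.1 of primed EV 2. Both members together held a mean share of counts of 0.0608% in primed EVs (SD 0.0140, n = 5), 0.116% in naive EVs (SD 0.0327, n = 5), 0.0907% in primed ASC (SD 0.0169, n = 4) and 0.146% in naive ASC (SD 0.0494, n = 4).

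**Figure D3:**
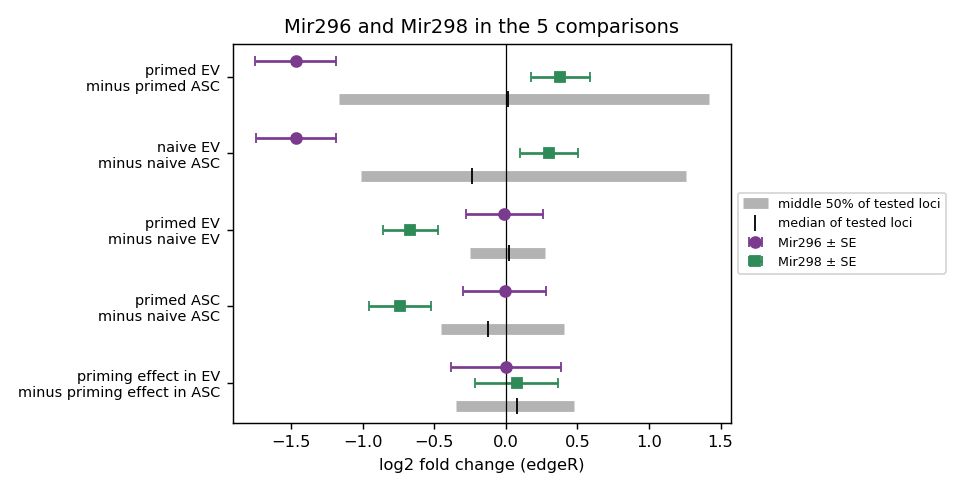
log2 fold changes of Mir296 and Mir298 with their SE in the 5 comparisons, beside the median and the middle 50% of the 245 tested loci. Mir296 lies at -1.47 in both EV against ASC comparisons and near 0 in the priming comparisons, while Mir298 lies at 0.38 and 0.30 in the EV against ASC comparisons and at -0.67 and -0.74 in the priming ones.

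The hairpins also differ in base composition, and GC content moved with the EV against ASC difference across loci. The Mir296 hairpin is 63.3% GC and the Mir298 hairpin 53.7%, against a median of 50% over the 209 tested loci with a RefSeq hairpin. Of these 209 loci, 190 had a lower GC content than Mir296 and 137 a lower one than Mir298. Across these loci, which share libraries and are not independent replicates, the log2 fold change correlated with GC content at r = -0.32 in the primed and -0.22 in the naive EV against ASC comparison. Adjusted along the linear trend to the mean GC content, Mir296 was at -0.56 in the primed and -0.85 in the naive comparison, and Mir298 at 0.59 and 0.45. The 28 loci within 5 GC points of Mir296 had median log2 fold changes of -1.08 and -0.98, and 11 and 6 of them were lower than Mir296. In the priming comparisons r was -0.06 in EVs and 0.22 in ASC, and Mir298 was at -0.65 and -0.80 with the same adjustment.

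**Figure D4:**
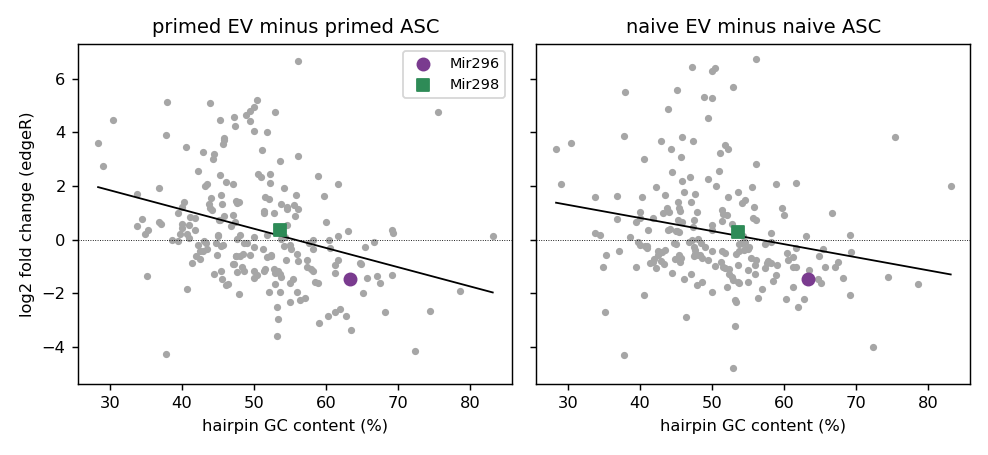
log2 fold change against hairpin GC content for 209 tested loci in the primed (left) and naive (right) EV against ASC comparison, with the least squares line. Mir296, at 63.3% GC, lies below the line, and Mir298, at 53.7% GC, lies above it in both panels.

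Other imprinted miRNA loci did not share 1 direction between EVs and ASC, and neither did the tested loci as a whole. Of 110 such loci in the files, named by their place at H19, Igf2, Mest, Sfmbt2 or Dlk1-Dio3, 32 passed the filter on low counts, and 30 of these lie in the Dlk1-Dio3 cluster, with Mir335 and Mir467d as the others. The counts below therefore describe mostly that cluster. The list was drawn up by name and may not hold every tested locus of these regions. In primed EVs against primed ASC 9 of the 32 (28.1%) were higher and 6 (18.8%) lower by edgeR's quasi-likelihood test. Of all tested loci 35.9% and 32.2% were. In naive EVs against naive ASC 7 (21.9%) were higher and 13 (40.6%) lower, where 33.5% and 32.7% of all loci were. The median log2 fold changes of the 32 loci were 0.13 and -0.52, and those of all tested loci 0.02 and -0.24. Mir335, in an intron of the paternally expressed gene Mest, was at 44.5 ± 18 CPM in primed EVs (SD, n = 5 libraries), 75.3 ± 38.4 CPM in naive EVs (n = 5), 4.42 ± 3.91 CPM in primed ASC (n = 4) and 5.48 ± 4.53 CPM (n = 4) in naive ASC. By the same edgeR test, with p adjusted by Benjamini-Hochberg, it was higher in primed EVs than in primed cells, at a log2 fold change of 3.26 (SE 0.69, adjusted p = 0.000337), and in naive EVs than in naive cells, at 3.66 (SE 0.63, adjusted p = 4.36e-05). Mir467d of the Sfmbt2 cluster was lower by that test in primed EVs than in primed cells (-1.62, SE 0.45, edgeR adjusted p = 0.00375) and in naive EVs than in naive cells (-1.33, SE 0.46, edgeR adjusted p = 0.0149). Mir483 of Igf2 had 68 counts in all libraries together and Mir675 of H19 had 5, and neither was tested.

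With priming, 5 of these imprinted loci passed the test in ASC and 0 in EVs. The difference between EVs and ASC in this response passed edgeR's test at 0 of the 32 loci and at 0 of all tested loci. The 0 of 32 is therefore not particular to imprinted loci. At an unadjusted p under 0.05, 6 of the 32 passed, all with a higher value in EVs, and with DESeq2 0 passed. No share of all loci was set beside any unadjusted or DESeq2 count in this paragraph. Those counts therefore do not show a trait particular to imprinted loci. In EVs 0 of 32 passed edgeR's quasi-likelihood test, where 0.816% of all loci did. That share is 2 loci, both higher, and it became 7 higher and 1 lower without primed EV 2, 4 higher without naive EV 1, and 1 higher without any of primed ASC 2 to 5 or naive ASC 1 or 3. At an unadjusted p under 0.05 1 passed, and with DESeq2 0 passed. In primed against naive ASC 5, or 15.6%, were lower and 0 higher, where 4.9% and 5.31% of all loci were. All 5 are of the Dlk1-Dio3 cluster, which holds maternally expressed miRNAs. At an unadjusted p under 0.05, 10 were lower and 0 higher, and DESeq2 called 4. The 5 depended on single libraries. Their number was 0 without primed ASC 3 or 4 or naive ASC 1, 3 or 4, 2 without primed ASC 5, naive ASC 5, primed EV 2 to 5 or naive EV 1 to 3, and 3 without primed EV 1.

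The loci most like each member over the 18 libraries were not the same. For Mir296 they were Mir3102 (Pearson r = 0.94), Mir214 (0.92) and Mir324 (0.92) on log2 CPM. For Mir298 they were Mir758 (0.64), Mir666 (0.63) and Mir181b-2 (0.60), of which Mir758 and Mir666 belong to the Dlk1-Dio3 cluster. Mir296 and Mir298 correlated with each other at -0.29 over the 18 libraries, which put Mir298 at place 144 of 244 for Mir296. Over the 10 EV libraries their r was 0.33 and over the 8 ASC libraries -0.13. These correlations describe libraries that share their groups and scaling. With deviations from the group means, r with Mir296 was 0.66 for Mir3102, 0.49 for Mir214 and 0.48 for Mir324. These 3 loci then stood at places 3, 15 and 18 of 244. For Mir298, r was 0.17 with Mir758, 0.46 with Mir666 and 0.17 with Mir181b-2, at places 51, 8 and 47. Between Mir296 and Mir298 r was 0.19.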

How the data were processed

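The authors deposited raw, unnormalized counts for each annotated hairpin, in 1 file per library. FeatureCounts 1.5.3 counted them over miRNA genes (Ensembl release 76) with strand ignored, per the file headers. The submitters' processing notes list STAR 2.0.4, bcl2fastq, Subread, featureCounts 1.45 and GRCm38. Trimming and aligner options: not given in the sources used here. Of 2009 loci 1899 matched GENCODE M21 by identifier.

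Loci were kept by edgeR's filterByExpr (245 loci, both members among them, with 99.957% of counts) and scaled by TMM. All 18 libraries entered 1 model of group means in edgeR 4.0.16 (limma 3.58.1, R 4.3.3), and the quasi-likelihood test was adjusted by Benjamini-Hochberg over the 245 loci at a threshold of 0.05. SEs come from the log2 fold change and the F value, and intervals are approximate. CPM are TMM-scaled, and correlations use log2 CPM with a prior count of 2. The fit was tried on simulated counts with changes between EVs and ASC only and 1 spread for all loci. Changes with priming were not simulated. DESeq2 1.42.0 was an alternative. Mir296, Mir298, the lists and the tests were chosen with earlier results of these data known. Loci named as alike are the 3 with the highest r. Reads were counted without molecular identifiers.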

Additional observations from a re-analysis of the deposited data

How the results depend on the processing

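Limits come from depth at Mir296, with as few as 24 counts in an EV library, and from scaling. Values of both members and their ratio stayed within 1 SD between single libraries in 304 of 314 recomputations. Many left out a library not compared, so 304 is no measure of robustness. The other 10 follow, and their cause was not tested beyond the change of setting. With library totals alone Mir296 was at -2.18 in primed EVs against primed ASC and -1.94 in naive EVs against naive ASC, and Mir298 was at -0.33, at -0.18 and, in primed against naive EVs, at -0.97. With the GC trend removed Mir296 was at -0.56 and -0.85 in the EV against ASC comparisons. With the replicate block as well it was at -0.54 and -0.90. Thinned to the shallowest library, its log2 fold change with priming in EVs less that in ASC was -0.41. Only a constant added to both counts and counts summed over a group were tried for the ratio of Mir298 to Mir296. With these and without each library it kept its direction, at log2 differences of 1.5 to 2.10 in EVs against ASC. GC trend removal, thinning and the block were not tried.

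With the replicate block by title number Mir296 was at -1.45 and -1.53 in primed and naive EVs against ASC, and Mir298 at -0.78 and -0.84 with priming in EVs and ASC. Same-numbered libraries had correlations of -0.16 to 0.52. The 7 of 25 pairs at or under 0.1 were all of title number 5, so the numbers were not taken to pair libraries. The 16 pairs of other numbers lay at 0.24 to 0.52. The best match had the same number in 9 of 17 matches over 4 group comparisons, where libraries can recur. By title number, Mir298 was lower when primed in 5 of 5 EV and 3 of 3 ASC pairs. For Mir296 it was 3 of 5 and 2 of 3. EV pairs sharing naive EV 5 are not independent and other loci were not counted, so this is no test.

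Of other imprinted loci, 15 in place of 6 were lower in primed EVs against ASC with library totals, and 2 after thinning. In naive EVs 7 in place of 13 were lower after thinning. In primed against naive ASC the 5 became 2 with relative log expression factors or thinning and 1 without a filter.

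Over all loci, 58 in place of 88 were higher in primed EVs against ASC with library totals. Over the settings 57 to 118 in place of 79 were lower, so the 15 above show no imprinted trait. In primed against naive EVs 0 were lower, but 5 without a filter, 2 with DESeq2 and 4 or 1 with the replicate block. In primed against naive ASC 28 in place of 13 were higher with DESeq2, and 5 and 6 in place of 12 were lower with relative log expression factors and thinning. Without 1 library those calls were 5 to 17 higher and 1 to 16 lower.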

Other observations

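Adjacent miRNA hairpins are often cut from 1 transcript, so the pair was set beside other neighbours, a description added after its values were seen. Among tested loci 74 neighbouring pairs lay on 1 strand within 10 kb. Many of them are of the Dlk1-Dio3 cluster, and a locus can be in more than 1 pair, so the pairs are not independent. In primed EVs against primed ASC the log2 fold changes of Mir296 and Mir298 differed by 1.85. The other 73 pairs had a median difference of 1.25. In naive EVs against naive ASC the pair differed by 1.77, where the median of the other pairs was 1.04. In primed against naive EVs it differed by 0.66, where the median was 0.22 and 7 of 73 pairs differed by more than Mir296 and Mir298. In primed against naive ASC it differed by 0.73, where the median was 0.39 and 20 differed by more.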
